A study of Solanum tuberosum with 2 samples.

Results

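The potato gene table of this study held 40430 features, of which 39021 carried PGSC gene identifiers and 1409 did not. The features described here are the 110 of these 1409 selected on their read number, at least 50 reads summed over both libraries. All of the 1409 were Ensembl RNA features (identifiers starting with ENSRNA), and the table named each of them for a family of non-coding RNA. The values came from 2 mRNA libraries of cv. Desirée (wild type), one of uncut in vitro plantlets 4 weeks old and one of single-node segments with a leaf cut from such plantlets. Both conditions had 1 library, made from 3 pooled biological replicates, and differences between them therefore have no replicate check. The labels gave leaf as the tissue of both samples and whole uncut plantlets as the control, so cutting and a difference in organs cannot be told apart. In such bulk samples, fewer cells of a type and less RNA per cell cannot be told apart either.

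These RNAs serve the making and reading of mRNA and protein. Ribosomal RNAs (rRNAs) form the ribosome, and the RNAs of its small subunit (SSU), its large subunit (LSU) and the 5.8S rRNA are cut from 1 long precursor that is transcribed from tandem repeats of rDNA, whereas 5S rRNA is transcribed elsewhere. The signal recognition particle (SRP) RNA is the scaffold of the particle that brings ribosomes to the endoplasmic reticulum. U1, U2, U4, U5 and U6 are the small nuclear RNAs (snRNAs) of the spliceosome, and U3 is a small nucleolar RNA (snoRNA) needed for cutting the rRNA precursor. Most of these RNAs carry no long poly(A) tail, and the libraries were enriched for mRNA with oligo(dT) beads, so the values describe what remained after that selection. Only uniquely aligned reads were kept, so reads that matched several rDNA copies equally well were not counted. The protocol names a kit for removing rRNA for long non-coding libraries, and its use for these libraries is not stated.

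The value of a feature was its RPM (reads per 1000000 reads of the library) on a log2 scale, and whole reads were recovered from it. The library totals were 37955480 reads for uncut and 33850940 for cut, and a count of 0 was taken to allow up to 3 reads, or 0.0790 RPM for uncut and 0.0886 RPM for cut. Differences are cut minus uncut in log2 RPM, with exact 95% intervals for the error of counting alone. The 8 leaf genes checked (chlorophyll a-b binding proteins and a carbonic anhydrase) were between 2.14 and 6.36 log2 RPM in both libraries, and their differences ran from -2.42 to 0.21. A root gene (Casparian strip integrity factor 2-like, PGSC0003DMG400030948) had 12541 reads in uncut plantlets and 876 in cut explants. Over all 21688 features with at least 50 reads the median difference was -0.33, so a feature is also read here against that median.

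Ribosomal RNAs made up most of the described features. Of the 110, 33 were pieces of SSU rRNA, 23 of LSU rRNA, 6 of 5.8S rRNA and 3 of 5S rRNA. The others were 13 SRP RNAs, 8 U6, 6 U2 and 1 U1 snRNA, 4 U3 and 2 snoZ103 snoRNAs, 1 RNase MRP RNA and 10 group II introns. SSU rRNA was also the class of which the largest share reached 50 reads among those with more than 10 listed features (36.7% of 90 features), followed by LSU rRNA (30.3% of 76) and SRP RNA (22.8% of 57). Transfer RNAs formed the largest class in the table with 556 features, but 538 of them had no read in either library and 0 reached 50 reads. Over all classes 1110 of the 1409 features had no read, whereas 55.3% of the PGSC features and 7.81% of the features without PGSC identifiers had at least 50 reads.

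**Figure D1:**
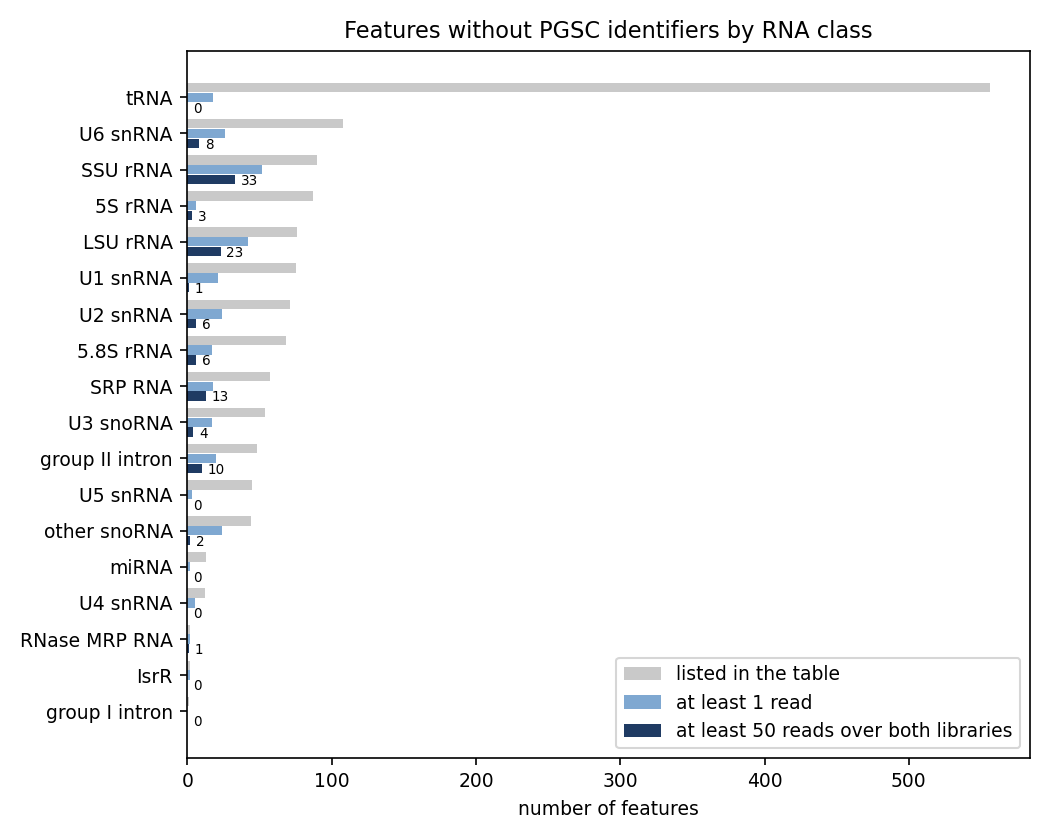
Horizontal bars give, for each RNA class, the number of features listed (grey), with at least 1 read (light blue) and with at least 50 reads over both libraries (dark blue, with the number). The 556 tRNAs have the longest grey bar and a dark bar of 0, while SSU rRNA has the longest dark bar, 33.

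The members were short features. Their length ran from 61 to 3017 bases with a median of 303, against a median of 99 bases for the features without PGSC identifiers that stayed under 50 reads and 3428.5 bases, introns included, for the PGSC features with at least 50 reads. At the same level a longer feature collects more reads, so the read minimum and the length are linked. Chromosome 3 held 32 members, 28 of them rRNA, and 34.5% of the reads on members. The pseudomolecule 0, which collects sequence not placed on a chromosome, held 19 members, all of them rRNA, with 29.9% of the reads. Chromosome 9 followed with 17.3%, on 9 members of which 1 was rRNA.

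Few members took most of the reads. The 10 most abundant held 60.1% of the reads on all members, and 8 of these were rRNA pieces and 2 SRP RNAs. The first was an SSU rRNA (ENSRNA049462930, chromosome 0, 25221066 to 25222726 in SolTub 3.0) with 19527 reads in uncut plantlets and 19749 in cut explants, a difference of 0.18 (0.15 to 0.21). Next came an LSU rRNA (ENSRNA049464180, chromosome 3, 12476669 to 12477168), with 11563 and 12116 reads and a difference of 0.23 (0.20 to 0.27). Both stood close together in the 2 libraries, and both lay above the median of all features. The other rRNA pieces among the 10 had differences from -0.14 to 0.58. At the low end, the SSU rRNA ENSRNA049462914 on chromosome 0 had 9296 and 7549 reads (-0.14), and ENSRNA049463049, also SSU rRNA on chromosome 0, had 5991 and 5246 reads (-0.03). At the high end, the SSU rRNA ENSRNA049463588 on chromosome 2 had 5149 and 6873 reads (0.58), and the LSU rRNA ENSRNA049464377 on chromosome 3 had 5350 and 6748 reads (0.50). Between them lay ENSRNA049463888 (SSU rRNA, chromosome 3), with 8586 and 9198 reads (0.26), and ENSRNA049464487 (LSU rRNA, chromosome 3), with 7517 and 8149 reads (0.28). The most abundant rRNA pieces thus all lay within 1 of equal levels. Together the members took 0.216% of the reads on features in the uncut library (0.215 to 0.217%) and 0.261% in the cut library (0.259 to 0.262%). These were 145633 and 156567 reads, of which the 5.8S rRNA copy ENSRNA049463687 alone held 408 and 7812.

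**Figure D2:**
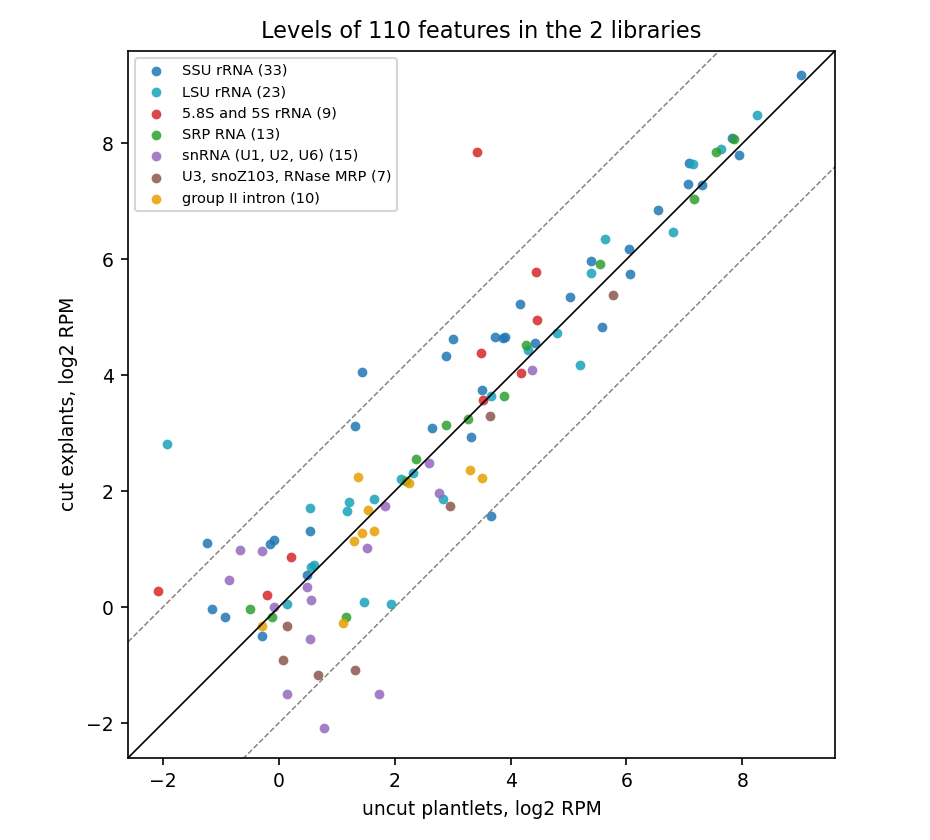
Each point is 1 of the 110 features, with its level in the uncut library on the horizontal and in the cut library on the vertical axis (log2 RPM), coloured by class. The solid line marks equal levels and the dashed lines a difference of 2, and 9 points lie outside the dashed lines.

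Between the libraries, 5 members were at least 2 log2 units higher in the cut explants and 4 at least 2 lower. This was 9 of 110 (8.18%), whereas 15.6% of all features tested differed by as much, 8.25% higher and 7.35% lower. With 1 RPM added to each value before the log, which shrinks the differences of low features, 3 members were at least 2 higher and 0 at least 2 lower. The share of all features on that scale is not given here. A difference within 1 in either direction was seen for 79 of the 110 members (71.8%), against 61.1% of all features. The median difference of the members was 0.13, or 0.46 above that of all features, and 61 of 110 members (55.5%) lay above 0, against 36.8% of all features. With reads summed over the members the difference was 0.27 (0.26 to 0.28), against 0.001 with reads summed over all features tested. The 0.27 includes the 5.8S rRNA copy ENSRNA049463687, with 408 and 7812 reads, so it is not a rise shared evenly by the members. The value of 0.001, not the median, is the reference for the sums given below. All 5 higher members were rRNA pieces. They were 7.69% of the 65 rRNA pieces, near the 8.25% of all features.

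Counting error was large for the smallest of these. Of the 40 members with under 200 reads, 2 were at least 2 higher and 3 at least 2 lower, and of the 39 with at least 1000 reads 1 was higher and 0 were lower. The interval lay wholly beyond 2 for 3 of the 5 higher and for 1 of the 4 lower members. At the minimum of 50 reads stood a 5S rRNA (ENSRNA049456932), with 9 and 41 reads and a difference of 2.35 (1.29 to 3.58), and a pair of SSU rRNAs, ENSRNA049455980 with 20 and 30 reads and ENSRNA049463211 with 17 and 33 reads. The first features left out were an LSU rRNA (ENSRNA049458157), with 24 and 23 reads, and a U6 snRNA (ENSRNA049454436), with 26 and 20.

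The 5.8S rRNA, the short RNA that pairs with the LSU rRNA in the ribosome, held the 1 member with at least 1000 reads that differed by 2 or more. The copy on chromosome 2 (ENSRNA049463687, 2124822 to 2124977) had 408 reads in uncut plantlets and 7812 in cut explants, a difference of 4.42 (4.28 to 4.57) or 21.5-fold. Per kilobase of its length it went from 68.9 to 1479 RPM, the highest level of any member in the cut library. The SSU rRNA that lies 219 bases beside it on the same strand (ENSRNA049463571, 2125197 to 2127004) had 3523 and 3891 reads, a difference of 0.31 (0.24 to 0.37). The libraries thus differed by over 2 in 1 piece and by under 1 in its neighbour.

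All 6 copies of 5.8S rRNA were 156 bases long, and all 6 lay above 0, against 36.8% of all features. The copy on chromosome 3 (ENSRNA049464469, 12430054 to 12430209) had 819 and 1861 reads and a difference of 1.35 (1.23 to 1.47). The 4 copies on chromosome 0 had differences from 0.05 to 0.89. The intervals of ENSRNA049463258 (-0.15 to 0.24) and ENSRNA049463331 (33 and 39 reads, 0.41, -0.30 to 1.12) contained 0. The copy at 0.89 (ENSRNA049463248, 425 and 704 reads) had an interval of 0.72 to 1.07. Summed over the 6 copies, reads went from 2959 to 11869, a difference of 2.17 (2.11 to 2.23). Without the copy on chromosome 2 the sum went from 2551 to 4057, a difference of 0.83 (0.76 to 0.91), so this 1 copy decided the value of the class.

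The SSU rRNA pieces were mostly somewhat higher in the cut explants. Of 33 pieces, 26 lay above 0, against 36.8% of all features, and 30 above the median of all features. At least 2 higher were 2 pieces (6.06%, against 8.25% of all features), and at least 2 lower was 1 (3.03%, against 7.35%). The median difference of the pieces was 0.45. The largest difference among them belonged to ENSRNA049463926 (chromosome 3, 12535865 to 12537562), with 103 and 563 reads, 2.62 (2.31 to 2.93). Also beyond 2 was ENSRNA049464606 (chromosome 3, 12517518 to 12517634), with 16 and 73 reads, 2.35 (1.56 to 3.24). Below that size, ENSRNA049463631 on chromosome 2 was higher by 1.82 (94 and 295 reads) and ENSRNA049462987 on chromosome 0 by 1.63 (304 and 840 reads). The one piece that was lower by over 2, ENSRNA049453925 (chromosome 6, 51060494 to 51060589), was 96 bases long and went from 478 to 101 reads, -2.08 (-2.40 to -1.77). With 1 RPM added it was -1.77, scaled by the median ratio of all features -1.74 and scaled by the upper quartile -1.90, all under a size of 2. It overlapped a PGSC feature that was lower too (PGSC0003DMG400004057, 3857 and 942 reads, -1.87).

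Of the 23 LSU rRNA pieces, 14 lay above 0, against 36.8% of all features, and 19 above the median of all features. Their median difference was 0.13, and 1 was at least 2 higher (4.35%, against 8.25% of all features). This was ENSRNA049463513 (chromosome 0, 20205508 to 20205660), with 10 reads in uncut plantlets and 239 in cut explants, a difference of 4.74 (3.84 to 5.82). Its interval contains the 4.42 of the 5.8S rRNA copy on chromosome 2, and with 1 RPM added to each value the difference was 2.67 for this piece and 4.30 for that copy (ENSRNA049463687). On the other side, the lowest pieces were ENSRNA049463400 (chromosome 0, 20194753 to 20195021), with 145 and 35 reads, -1.89 (-2.46 to -1.34), and ENSRNA049463961 (chromosome 3, 12589049 to 12592065), with 105 and 36 reads, -1.38 (-1.97 to -0.82). Among pieces with at least 200 reads, ENSRNA049464299 (chromosome 3, 12579314 to 12579744) had 1399 and 610 reads, -1.03 (-1.17 to -0.89), and ENSRNA049463977 (chromosome 3, 12126859 to 12128318) had 270 and 123 reads, -0.97. Pieces of the same rRNA therefore stood on both sides of 0. Summed over all pieces, SSU rRNA had a difference of 0.22 (0.20 to 0.23) and LSU rRNA of 0.22 (0.20 to 0.24), nearly the same value.

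The 3 members of 5S rRNA differed in sign. The most abundant (ENSRNA049456611, chromosome 8, 1285784 to 1285895) had 689 and 555 reads, -0.15 (-0.31 to 0.02), and the next (ENSRNA049453193, chromosome 7) had 44 and 62 reads, 0.66 (0.08 to 1.25). Their sum, with the copy at the read minimum, gave a difference of -0.01 (-0.16 to 0.15). Features named for plastid genes, whose mRNAs like rRNA mostly lack a long poly(A) tail, were looked at beside these classes. The 6 PGSC features that the study's annotation names for plastid genes were placed on chromosomes 1, 6 and 9. They had 42732 reads in uncut plantlets and 64121 in cut explants, a difference of 0.75 over their sum. Of these reads, PGSC0003DMG400004211 alone held 28351 and 44622. Above 0 lay 5 of 6, against 36.8% of all features with at least 50 reads, and 1 lay at -2.17. Among the 5, PGSC0003DMG400038200 had only 11 and 11 reads. The part that poly(A) selection had in the rRNA values was not tested.

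**Figure D3:**
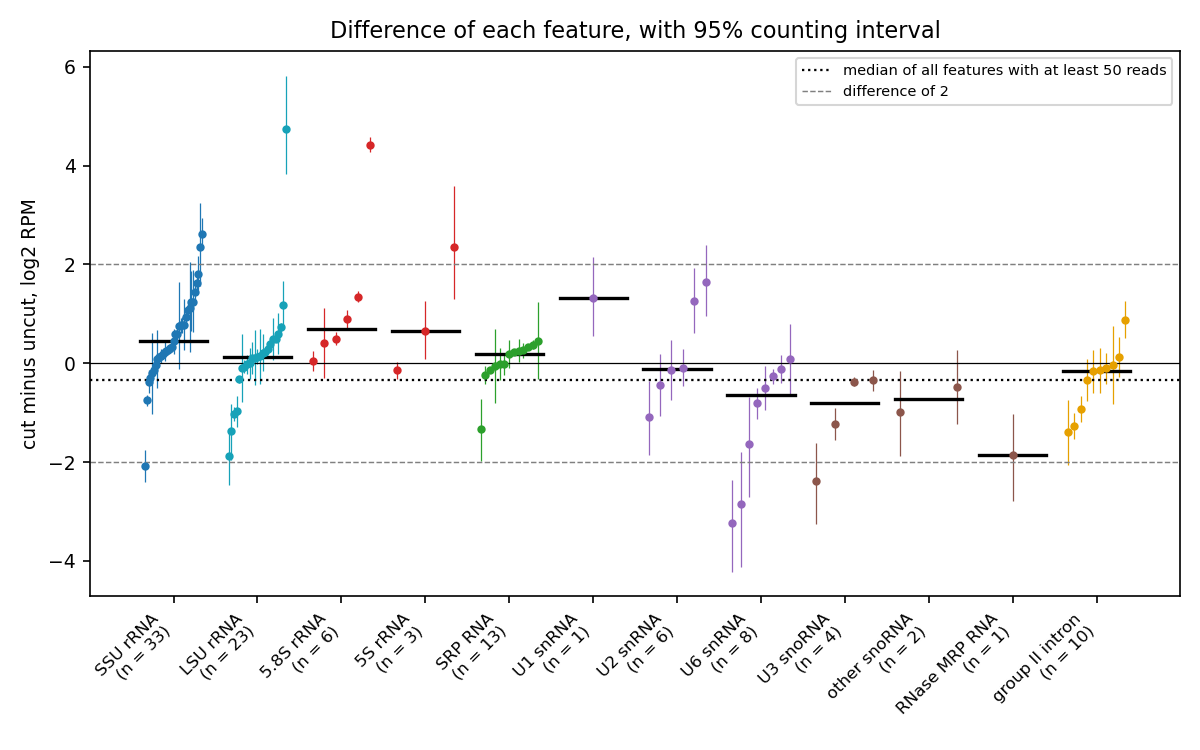
Points give cut minus uncut (log2 RPM) for each of the 110 features by class, bars the 95% counting interval and black lines the class median. The dotted line is the median of all 21688 features, -0.33, and the dashed lines mark 2 and -2. Of the 65 rRNA pieces 58 lie above the dotted line, and of the 7 features of U3, other snoRNA (snoZ103) and RNase MRP RNA 7 lie below it. These 7 were grouped with earlier results of these data known, and the bars of some cross the dotted line.

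Runs of rDNA held most of the rRNA pieces. With SSU, LSU and 5.8S features grouped where gaps stayed under 100 kb, blocks of at least 5 features held 46 of these 62 members. The largest block (chromosome 3, 12412122 to 12739526) had 57 listed features, of which 23 were members, and its reads went from 48276 to 50766, a difference of 0.24 (0.22 to 0.26). A block on chromosome 0 (25174978 to 25243158), with 12 members of 18 features, went from 44803 to 43530 reads, 0.12 (0.10 to 0.14). In their summed reads these 2 blocks differed little between the libraries, but their members ran from -1.38 to 2.62 and from -0.37 to 1.44. Another block (chromosome 0, 20113288 to 20247781) had 611 and 1369 reads, 1.33 (1.19 to 1.47), and its 6 members ran from -1.89 to 4.74.

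Neighbouring pieces of rDNA often differed from each other. Among the 16 pairs of rRNA members with at most 1000 bases between them on 1 strand, the intervals of the pair overlapped in 5 and did not in 11. These intervals hold counting error alone and are too narrow where mates were counted separately. A pair only 0.16 apart (ENSRNA049463049 and ENSRNA049463163) is among the 11. The difference between neighbours had a median of 0.77, was under 0.5 in 5 pairs and over 1 in 4. The widest was the pair of 5.8S and SSU rRNA on chromosome 2 described above, 4.12 apart. On chromosome 3, an SSU rRNA (ENSRNA049463898, 2531 and 1828 reads, -0.30) lay 219 bases from the 5.8S rRNA ENSRNA049464469, and the pair was 1.65 apart. By contrast, the LSU pieces ENSRNA049464180 and ENSRNA049464487, 36 bases from each other, differed by 0.05, and both overlapped the same PGSC feature (PGSC0003DMG402019042, difference 0.26).

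**Figure D4:**
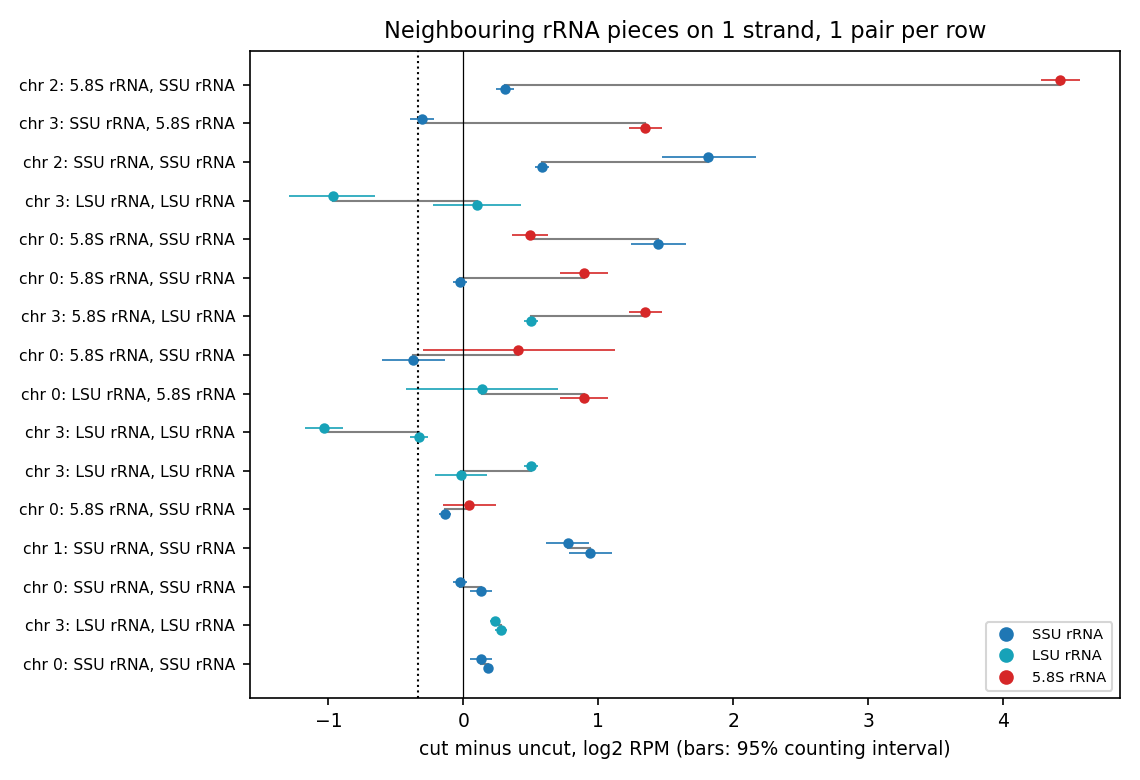
Each row is a pair of neighbouring rRNA pieces, with cut minus uncut (log2 RPM) of both and 95% counting intervals, ordered by how far the differences lie apart. The solid line is 0 and the dotted line the median of all features. The pair at the top, 5.8S rRNA at 4.42 and SSU rRNA at 0.31, is the widest, and intervals overlap in 5 of the 16 pairs.

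SRP RNA was the most even of the 4 classes with at least 10 members. None of its 13 members differed by 2, against 15.6% of all features, and 12 lay within 1 of equal levels, against 61.1%. The median difference of the class was 0.19 with an interquartile range of 0.32. The most abundant (ENSRNA049455697, chromosome 9, 57393957 to 57394259) had 8826 and 9160 reads, 0.22 (0.18 to 0.26), and the next (ENSRNA049455653, chromosome 9, 57389675 to 57389978) had 7056 and 7859 reads, 0.32 (0.27 to 0.37). This second copy overlapped a PGSC feature that the study's annotation names pathogenesis-related protein STH-2, which had 15 and 1 reads. Per kilobase, the copies reached 767 and 612 RPM in the uncut and 893 and 764 RPM in the cut library. The 1 copy beyond a difference of 1 had few reads (ENSRNA049460252, chromosome 5, 85 and 30 reads, -1.34 with an interval of -1.99 to -0.72). SRP RNA had 16.98% of the reads on members.

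Spliceosomal RNAs showed both directions. U6, which forms the catalytic centre of the spliceosome, had 8 members, of which 7 lay below 0 and 2 were at least 2 lower, with a median difference of -0.65. Above 0 lay 1 of 8, against 36.8% of all features, and at least 2 lower were 2 of 8, against 7.35%. Of the 8 members, 5 lay below the median of all features. The largest difference was that of ENSRNA049461589 (chromosome 8, 56258816 to 56258922), with 126 reads in uncut plantlets and 12 in cut explants, -3.23 (-4.22 to -2.37) or 9.36-fold lower. The other was ENSRNA049456125 (chromosome 3, 8829039 to 8829141), with 65 and 8 reads, -2.86 (-4.13 to -1.79). The most abundant copy (ENSRNA049456463, chromosome 5, 51464820 to 51464930) had 781 and 579 reads, -0.27 (-0.42 to -0.11), close to the median of all features. The second most abundant (ENSRNA049458997, chromosome 2) had 229 and 189 reads, -0.11.

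U2, which pairs with the branch point of introns, had 6 members with differences from -1.09 to 1.65 and a median of -0.11, which was 0.22 above the median of all features. The copy with the most reads (ENSRNA049453367, chromosome 8, 35383823 to 35383990) had 136 and 114 reads, -0.09 (-0.46 to 0.28). A pair of copies on chromosome 2, ENSRNA049459368 (31 and 66 reads) and ENSRNA049459388 (24 and 67 reads), were higher in the cut library by 1.26 (0.62 to 1.92) and 1.65 (0.95 to 2.38). U1, which pairs with the start of introns, had 1 member (ENSRNA049461575, chromosome 8), with 21 and 47 reads, 1.33 (0.56 to 2.14). Summed over their members, U6 had a difference of -0.51 (-0.62 to -0.39) and U2 of 0.14 (-0.07 to 0.36).

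The RNAs that help to cut the rRNA precursor had differences below those of most rRNA pieces, with a median of -0.80 for U3 against 0.31 over the 65 pieces. U3 had 4 members, of which 1 was at least 2 lower, against 7.35% of all features. All 4 lay below the median of all features. Summed over them the difference was -0.47 (-0.56 to -0.39), and with a minimum of 10 reads in place of 50 the median of U3 was -0.35, next to the median of all features. The most abundant (ENSRNA049461069, chromosome 6, 2746239 to 2746356) had 2055 and 1416 reads, -0.37 (-0.47 to -0.27), and ENSRNA049461050 (chromosome 6, 2725679 to 2725800) had 472 and 331 reads, -0.35 (-0.55 to -0.14). These stood next to the median of all features. The remaining copies were lower, ENSRNA049462622 (chromosome 1, 79022061 to 79022275) with 296 and 113 reads, -1.22 (-1.55 to -0.91), and ENSRNA049461446 (chromosome 3, 52114994 to 52115210) with 94 and 16 reads, -2.39 (-3.25 to -1.62).

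RNase MRP RNA, part of an enzyme that cuts the rRNA precursor in yeast, had 61 and 15 reads (ENSRNA049454388, chromosome 10, 56369892 to 56370155), -1.86 (-2.78 to -1.03). The snoRNA snoZ103 had 2 members on chromosome 12, ENSRNA049454974 with 42 and 27 reads, -0.47 (-1.23 to 0.26), and ENSRNA049454955 with 40 and 18 reads, -0.99 (-1.88 to -0.15). Of these 7 features, U3 included, 7 lay below the median of all features, compared with 7 of the 65 rRNA pieces. Of all 21688 features with at least 50 reads, 10844 lay below it, as a median requires. The intervals of the U3 copies ENSRNA049461069 and ENSRNA049461050 and of both snoZ103 members contained that median, -0.33. RNase MRP RNA and the U3 copy ENSRNA049461446 reached 50 reads through the uncut library, where they were higher. The 2 snoZ103 members lie in the same run of copies. The 7 features were grouped with earlier results of these data known, and a part of snoZ103 in cutting the precursor was not tested. With 1 library per condition the contrast between the groups was not tested.

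Group II introns are self-splicing introns that plants hold mainly in genes of organelles. The 10 members of this name lay on nuclear chromosomes and were 61 to 143 bases long. Their median difference was -0.15, 0.18 above the median of all features, with 0 beyond 2, against 15.6% of all features. Above 0 lay 2 of 10, against 36.8% of all features, and 6 lay above the median of all features. Summed over the 10, reads went from 1619 to 1047, a difference of -0.46 (-0.58 to -0.35). The most abundant (ENSRNA049454728, chromosome 6, 11291332 to 11291474) had 429 and 159 reads, -1.27, and the next (ENSRNA049462014, chromosome 1, 64701452 to 64701583) had 372 and 174, -0.93 (-1.20 to -0.67). Another, ENSRNA049454688 on chromosome 1, had 119 and 84 reads and overlapped a PGSC feature that the study's annotation names orf185 (mitochondrion), with 7633 and 4889 reads and a difference of -0.48.

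Overlap with other genes was common. Of the 110 members, 39 shared positions with at least 1 PGSC feature, 29 on the same strand as the overlapped feature with the most reads and 10 on the opposite strand. The share was 6 of 10 for group II introns, 5 of 8 for U6, 4 of 6 for U2, 2 of 4 for U3, 3 of 13 for SRP RNA and 19 of 65 for rRNA. The table does not give exons, so whether a member lay in an exon or an intron of the overlapped gene was not settled. Reads in a shared exon may have been counted for both features. In 8 of the 39 the member had more reads than the overlapped feature, so its reads were not all counted there.

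Members differed between the libraries much as the genes they overlapped did. For the 34 members whose overlapped PGSC feature also had at least 50 reads, both differences had the same sign in 32, and the gap between them had a median of 0.21 and was at most 1 in 33. Pearson's r across these 34 members was 0.86 and Spearman's rho 0.79, a description across features that share both libraries and possibly reads. Against the nearest PGSC feature that they did not overlap, the same members had coefficients of 0.12 and 0.24 and a median gap of 0.82. There the sign was the same in 23 of the 34, and the gap was at most 1 in 21. Split by class, r and rho were 0.81 and 0.42 for the 15 rRNA members and 0.84 and 0.79 for the 19 others. Split by strand, the coefficients were 0.87 and 0.81 for the 24 members on the same strand and 0.80 and 0.79 for the 10 on the opposite strand.

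The U6 with the largest difference, ENSRNA049461589, overlapped PGSC0003DMG400012137 on the same strand. That feature had 709 reads in uncut plantlets and 40 in cut explants, -3.98, which is further from 0 than the -3.23 of the U6, and the U6 had 17.8% as many reads in the uncut library. The U3 copy ENSRNA049461069 (-0.37) overlapped a PGSC feature with 14744 and 10759 reads (-0.29). In contrast, 5.8S rRNA ENSRNA049463258 (chromosome 0, 25240976 to 25241131) had 439 and 404 reads, 0.05, while the feature it overlapped was 1.03 higher. The study's annotation names this feature Protein TAR1. In yeast TAR1 is encoded opposite to rRNA within the rDNA, whereas here both features lay on the same strand. The 2 members whose sign differed from that of the overlapped gene were U2 copies on the opposite strand (ENSRNA049453367 and ENSRNA049461757).

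**Figure D5:**
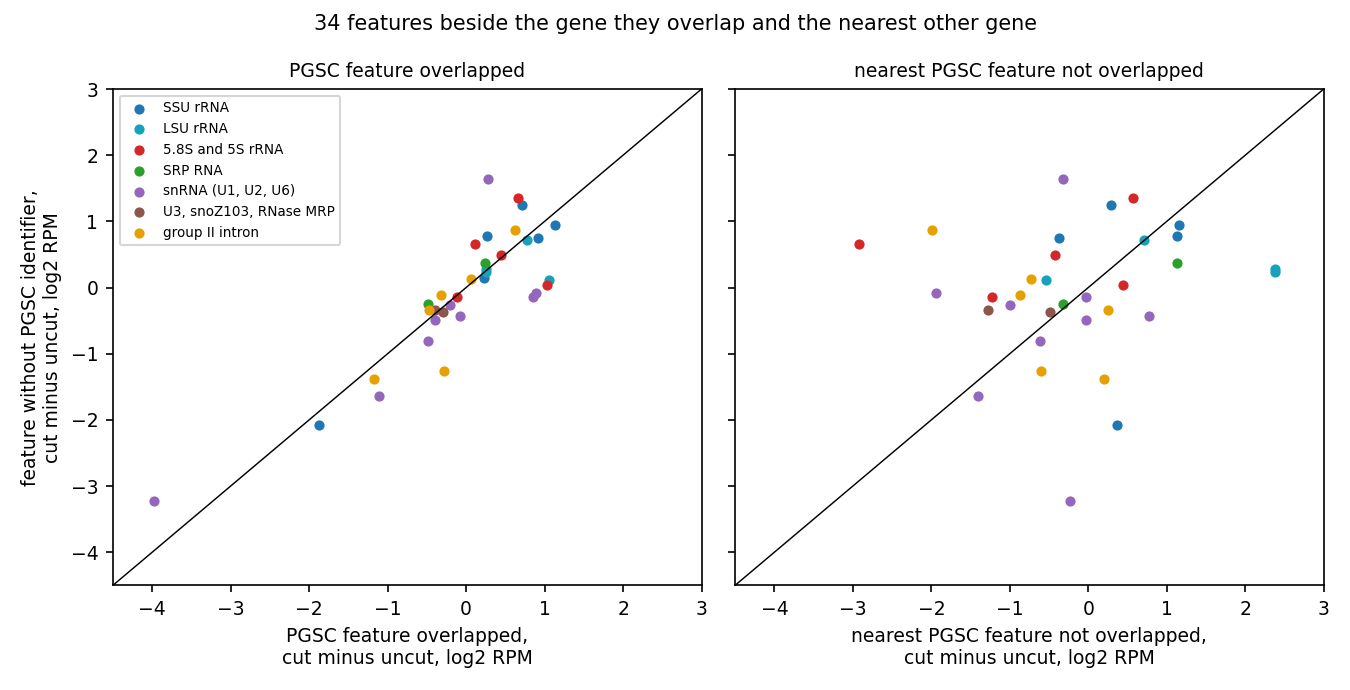
Cut minus uncut (log2 RPM) of 34 features is plotted against that of the PGSC feature they overlap (left) and of the nearest PGSC feature they do not overlap (right), coloured by class. The diagonal marks equal differences, and the points lie close to it on the left (median gap 0.21) and spread on the right (median gap 0.82).

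The members without an overlapped PGSC feature gave a similar median. Over these 71 the median difference was 0.13, with 5 at least 2 higher (7.04%) and 2 at least 2 lower (2.82%). Over the 39 with overlap it was 0.11, with 0 higher and 2 lower (5.13%). Of all features, 8.25% were higher and 7.35% lower. The 5 higher rRNA pieces had no overlapped PGSC feature, but their share of the 71 was near that of all features. Of the lower members, the U6 on chromosome 3 and the U3 on chromosome 3 had none, and the U6 on chromosome 8 and the SSU rRNA on chromosome 6 had one that was lower as well.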

How the data were processed

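The deposited table held log2 RPM per gene for 2 mRNA libraries, made by the authors with Trim Galore 0.5.0, HISAT2 2.1.0 (SolTub 3.0, paired-end) and the SeqMonk 1.42.0 RNA-seq pipeline, which counted uniquely aligned reads (mapping quality of at least 60) in exons and corrected for total reads. The methods are those of the paper, which states that the cutting study shared them save for minor differences. Strand-specific counting is not given in the sources used here. Reads were recovered by dividing the RPM by that of 1 read. Of values under 2000 reads, 100% of 18254 (uncut) and 19865 (cut) were whole within 0.05 read, and features without reads stood at 0.9 read. Reads on features (67314360 and 60081924) exceeded the library totals, so the Clopper-Pearson intervals understate the error where mates were counted separately.

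No test was run with 1 library per condition, and a size of 2 on the log2 scale served as the call. The members, classes and lists were chosen with earlier results of these data known. Members named were the 10 with the most reads, the 5 highest and 5 lowest differences with at least 200 reads, the first 2 of each class, and 2 at the read minimum. Others named for their overlap, position or size were chosen after their values were seen. Classes follow the names in the table. For PGSC features, gene names come from the study's annotation. Of the 1409 identifiers, 0 matched the RefSeq gene table (SolTub_3.0), so no sequence is shown. The steps were tested on simulated reads. Alternatives were other read minima, sizes, pseudocounts and scalings. The work was done in Python 3.11.15, with scipy 1.17.1 and numpy 2.4.6 for the intervals, pandas 2.3.3 for tables and matplotlib 3.10.9 for plots.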

Additional observations from a re-analysis of the deposited data

How the results depend on the processing

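The counts of members that differed moved with the threshold, being small. Against 5 higher and 4 lower, a minimum of 10 reads gave 13 and 9, a minimum of 200 reads 3 and 1, and no read minimum 22 and 12. With the size set to 1 in place of 2 the counts were 17 and 14, and with 3 they were 2 and 1. Within 1 lay 71.8% of the 110 members, against 61.1% of all features. At the main setting 8.25% of all features were higher and 7.35% lower. Shares of all features at the other settings are not given here, so those counts are not read against all features. A pseudocount of 1 RPM left 3 higher and 0 lower. Without members that overlap a PGSC feature, a choice made after seeing the data, 2 were lower. Under log2(RPM + 0.1) and both scalings the counts stayed within 1.5 times, although the SSU rRNA on chromosome 6 fell under a difference of 2 in both scalings.

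Scaling by the median ratio adds 0.33 to every difference and scaling by the upper quartile 0.17. Under the median ratio the median of all members became 0.46, of SSU rRNA 0.78, LSU rRNA 0.46, 5.8S rRNA 1.03, 5S rRNA 0.99, SRP RNA 0.52, U1 1.66, U2 0.22, U6 -0.32, U3 -0.46, snoZ103 -0.40, RNase MRP RNA -1.53 and group II introns 0.18, so that the medians of U2 and group II introns changed sign. The leaf genes became -0.48, the features named for plastid genes 1.01 and the root gene -3.34, a setting added after seeing the data. With a minimum of 10 reads the median of U3 was -0.35, as copies with few reads entered. As a share of the library total, members took 0.384% of the uncut and 0.463% of the cut library. Of 36 named members, 6 changed sign under the median ratio, 5 under the upper quartile and 0 on the log2(RPM + 1) scale. No paired analysis was possible because there was a single library for each condition.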

Other observations

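Of the features without PGSC identifiers, 189 had between 1 and 49 reads, and some of them stood beside members of the same kind. On chromosome 12, 6 snoZ103 copies lay within 2038 bases (57908648 to 57910685), of which 5 had reads and 5 of these 5 were lower in the cut explants. Of all features with at least 50 reads, 36.8% lay above 0. Elsewhere on chromosome 12, a further snoZ103 copy (ENSRNA049461146) had 3 and 3 reads. The reads of the 5 copies in the run summed to 129 in uncut plantlets and 67 in cut explants. This was a difference of -0.78 (-1.23 to -0.34), and the 2 members of this name are among these copies. The snoRNA snoJ33 on chromosome 7 (ENSRNA049453282) went the other way, with 2 and 24 reads. These features were chosen after their values were seen.

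MicroRNA hairpins had few reads. Of 13 listed, 2 had reads, both named MIR164, a family whose mature RNA acts on mRNAs of NAC transcription factors in Arabidopsis. The hairpin on chromosome 9 (ENSRNA049453079, 12152607 to 12152786) had 21 reads in uncut plantlets and 0 in cut explants, at least 6.24-fold lower with the count of 0 taken as 3 reads in that library and the other count as exact. The hairpin on chromosome 10 (ENSRNA049454313) had 0 and 3 reads. Among tRNAs the highest was a tRNA-Glu on chromosome 0 (ENSRNA049442001) with 4 and 16 reads, and the 556 tRNAs together had 50 and 66 reads. Of the snRNAs, U4 had 18 and 16 reads over 12 features and U5 had 6 and 2 reads over 45 features.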
